A study of Mus musculus with 6 samples.

Results

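Cluster 6 is one of the expression clusters that the study's authors drew over all of their PB3 cells, and its members are the rows of the deposited cell table that carry that cluster number. It holds 3739 of 51785 cells and nuclei. PB3 is a mouse mammary tumour line, here carrying lentiviral lineage barcodes, short synthetic tags that are copied into every daughter cell. Of the members, 32.5% (31.0 to 34.0) were PAC1 cells, 42.6% (41.0 to 44.2) were untreated cells (UNT cells) and 12.8% (11.8 to 14.0) were untreated nuclei (UNT nuclei). These ranges, like all those in parentheses after a share below, are exact Clopper-Pearson 95% intervals and cover counting error only.

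The conditions were as follows. PAC1 cells had 1 round of paclitaxel at 100 nM for 72 h and a recovery whose length is not stated. PAC2 and PAC3 cells had further rounds at 250 nM, and no recovery is named after the last round of PAC2. ERI1, ERI2 and ERI3 cells had 1, 2 and 3 rounds of eribulin at 500 nM, each of 72 h with 48 h of recovery, and ERI4 cells and ERI4 nuclei had 4. UNT cells and UNT nuclei had no drug. All came from cultures of the barcoded PB3 line. PAC1, PAC2 and PAC3 were hashtagged and captured as 1 library in run 2, as were ERI1, ERI2 and ERI3. ERI4 and UNT cells were run 1, and the nuclei, from a combined RNA and chromatin kit, were run 3. Each condition was therefore present once, no test was made, and PAC1 and UNT cells differ in run and library as well as in drug, which cannot be told apart.

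Both drugs bind microtubules, the filaments that build the mitotic spindle. Paclitaxel stabilises them and eribulin stops their growing ends from lengthening, and with either one dividing cells can stall in mitosis. Cells that come through a round may die later, stop dividing or resume growth, and a mixed culture can pass through such a round by changing state, by losing some lineages, or both. A cluster number describes state, whereas the lineage barcode was not used to draw the clusters and so gives a separate reading of which families of cells fill cluster 6. No values per gene were analysed here, so no marker could be checked and the cluster is called by its number.

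The barcodes have a 14-base and a 30-base part joined by a 4-base linker, and are named by the numbers of the parts. The sequences below are those on which the lineage results turn. The first 6 had at least 10 cluster 6 cells in both PAC1 and UNT cells, and the last 2 were frequent in cluster 6 of PAC1 and had no UNT cell there. Capitals mark the variable parts and lower case the linker, which was the same in all.
bc14-21-bc30-67560: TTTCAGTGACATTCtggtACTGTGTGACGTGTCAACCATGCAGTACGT
bc14-92-bc30-83570: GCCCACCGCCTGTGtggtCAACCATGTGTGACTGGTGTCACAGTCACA
bc14-51-bc30-38039: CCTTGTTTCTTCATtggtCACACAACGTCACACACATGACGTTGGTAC
bc14-51-bc30-21431: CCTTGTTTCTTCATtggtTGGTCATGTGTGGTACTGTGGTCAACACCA
bc14-69-bc30-34430: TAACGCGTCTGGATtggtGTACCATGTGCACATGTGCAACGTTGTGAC
bc14-69-bc30-83753: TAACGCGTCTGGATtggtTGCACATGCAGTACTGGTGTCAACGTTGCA
bc14-13-bc30-74188: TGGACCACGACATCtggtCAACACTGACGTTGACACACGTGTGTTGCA
bc14-38-bc30-7217: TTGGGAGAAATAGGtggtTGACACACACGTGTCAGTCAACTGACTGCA

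The 2 barcodes with first part bc14-51 share those 14 bases and differ at 26 of the 30 positions of the second part, and the bc14-69 pair differs at 22. Whether such a pair marks 1 founder with 2 integrations was not tested.

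Cluster 6 made up a far larger share of PAC1 than of any other condition. It held 1215 of 2928 PAC1 cells, or 41.5% (39.7 to 43.3), and was the largest of the 14 clusters found in PAC1. Of UNT cells it held 1591 of 11061, or 14.4% (13.7 to 15.1), and was the cluster of rank 3. Within the paclitaxel library, where the 3 conditions shared a capture, the share was 41.5% in PAC1, 3.18% in PAC2 (27 of 848) and 5.16% in PAC3 (144 of 2792). After 1 round of eribulin it was 0.965% (18 of 1865 ERI1 cells), after 2 rounds 0.955% (12 of 1257) and after 3 rounds 4.65% (143 of 3076). In run 1 the share was 0.643% in ERI4 cells (60 of 9331), against 14.4% in UNT cells, and in run 3 it was 0.563% in ERI4 nuclei (49 of 8711), against 4.84% in UNT nuclei (480 of 9916). Neither interval of an ERI4 condition reached that of its untreated one.

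**Figure D1:**
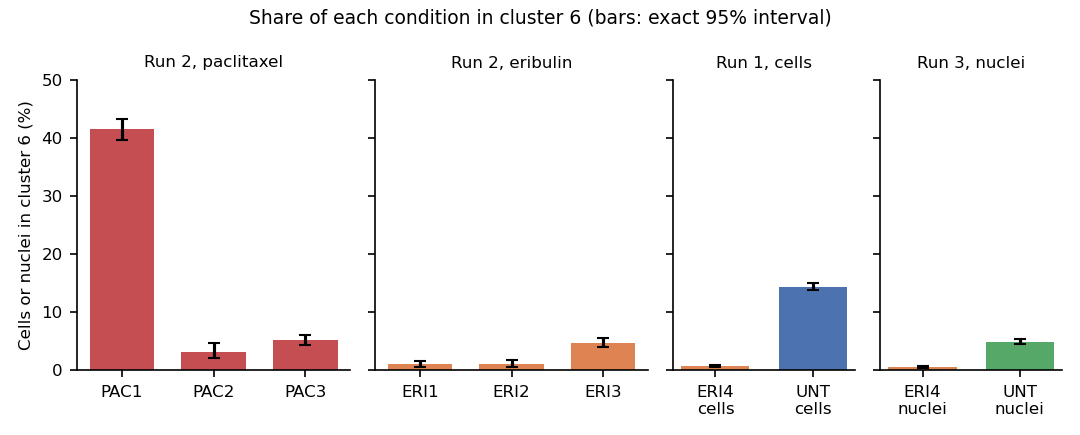
Share of each condition's cells or nuclei in cluster 6 (y axis, percent), by run, with exact 95% intervals as error bars. PAC1 stands at 41.5%, UNT cells at 14.4%, and the other 6 cell conditions lie between 0.643% and 5.16%.

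PAC1 and UNT cells of cluster 6 occupied separate places in the authors' UMAP, a 2-dimensional map of expression similarity. Their median positions lay 4.99 map units apart. Cluster 1, the largest cluster of UNT cells, showed a displacement of similar size, with 5.06 units between its PAC1 and UNT cells, while the distance was 6.37 units in cluster 5 and 1.55 units in cluster 9. Within each library cluster 6 lay close to cluster 1, at 0.639 units in PAC1 and 0.812 units in UNT cells. Cluster 5 was as close to it in PAC1, at 0.625 units, but lay 2.02 units away in UNT cells. UNT nuclei of cluster 6 lay 8.64 units from UNT cells of cluster 6. Nuclei were from another kit and far shallower than cells, so values of nuclei are given beside those of cells only as levels.

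The neighbours of each cell in the map showed the same separation. Of the 30 nearest neighbours of cluster 6 PAC1 cells, 72.3% were PAC1 cells, 13.9% ERI3 cells, 9.66% PAC3 cells and 0.92% UNT cells. For cluster 6 UNT cells, 1.14% of neighbours were PAC1 cells and 96.4% were UNT cells. By cluster, 58.0% of the neighbours of the PAC1 members were also in cluster 6 and 13.8% in cluster 2, whereas for the UNT members 61.1% were in cluster 6 and 30.3% in cluster 1. The UNT nuclei had 63.1% of their neighbours in cluster 0 and 14.5% in cluster 6. The map and the clusters come from the same expression values, so these shares are a description and not independent evidence.

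**Figure D2:**
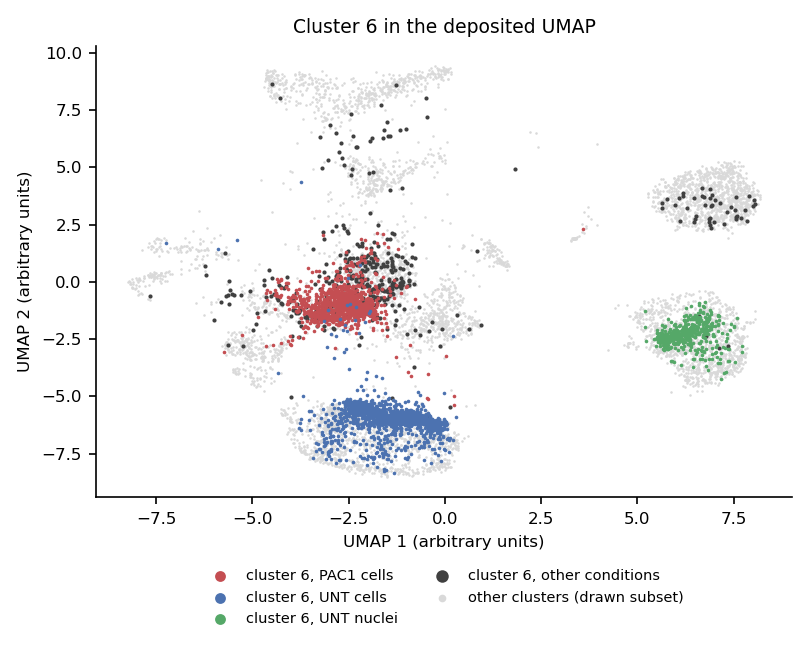
Cluster 6 members in the deposited UMAP (both axes in arbitrary map units), with PAC1 cells, UNT cells, UNT nuclei and other conditions in separate colours over a drawn subset of the other clusters in grey. The PAC1 and UNT members form patches 4.99 units apart and the UNT nuclei another patch on the right.

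Pseudotime, the authors' ordering of cells with untreated cells at the root, also differed between PAC1 and UNT members. Because it was computed on the same cells that were clustered and starts from untreated cells, it is a description and not independent evidence. Its median in cluster 6 was 17.6 in PAC1 (10th to 90th percentile 10.7 to 18.5) and 9.59 in UNT cells (7.93 to 10.4), a difference of 8.00 units. A PAC1 member had the higher value in 93.1% of pairs made of a PAC1 and a UNT member. The same contrast was 3.59 units in cluster 1, 0.598 units in cluster 5 and -2.01 units in cluster 9, so of these 4 clusters it was widest in cluster 6. UNT nuclei of cluster 6 had a median of 11.0 (9.12 to 13.3). Members from round 3 lay slightly later than PAC1, with medians of 18.6 in PAC3 and 18.7 in ERI3.

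Neither distribution had a single peak. In PAC1, 688 of 1215 members (56.6%) lay at 16.5 to 19, 257 (21.2%) at 14.5 to 16.5 and 184 (15.1%) at 8.5 to 12. In UNT cells, 1291 of 1591 (81.1%) lay at 8.5 to 12 and 67 (4.21%) at 16.5 to 19. These limits were set after the values were seen. The members with the other library's usual pseudotime stayed in their own library's patch of the map. The 184 PAC1 members at 8.5 to 12 had a median UMAP 2 of -1.14, against -0.99 for PAC1 members at 16.5 to 19, and the 67 UNT members at 16.5 to 19 had -5.85, against -5.86 for UNT members at 8.5 to 12.

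**Figure D3:**
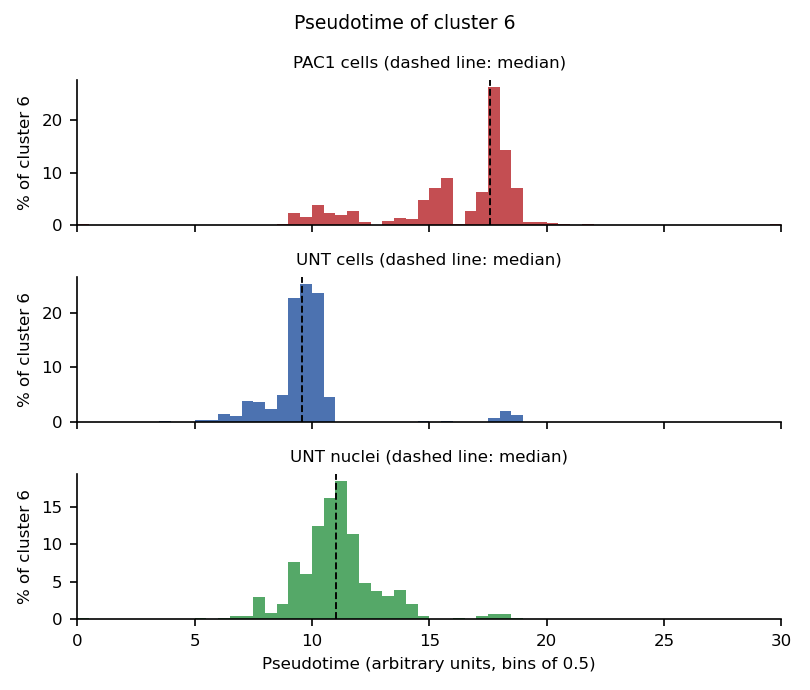
Pseudotime (x axis, arbitrary units, bins of 0.5) of the cluster 6 members as a percentage of each condition's members (y axis), for PAC1 cells, UNT cells and UNT nuclei, with dashed lines at the medians of 17.6, 9.59 and 11.0. PAC1 shows its main peak near 18 and smaller ones near 15 and 10, and UNT cells show 1 main peak near 10 with a small one near 18.

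Depth and RNA quality differed between the libraries, and cluster 6 moved with its library. Its members had a median of 12071 UMIs (counted RNA molecules) and 3166 genes in PAC1, against 17801 UMIs and 3869 genes in UNT cells, while UNT nuclei had 2870 UMIs and 1522 genes. In the other clusters together the medians were 11406 UMIs in PAC1 and 18542 in UNT cells. The median mitochondrial share of UMIs was 2.97% in PAC1 members (10th to 90th percentile 2.00 to 4.14) and 4.05% in UNT members (3.31 to 4.90). PAC1 was lower than UNT cells by a similar amount in every cluster compared, with differences of -1.08 percentage points in cluster 6, -1.18 in cluster 1, -1.36 in cluster 5 and -1.08 in cluster 9. In UNT nuclei of cluster 6 it was 9.82%. The part of depth and run in the cluster shares was not tested. Among cells with 11072 to 25075 UMIs, a range shared by both libraries, cluster 6 held 46.9% of PAC1 and 16.2% of UNT cells.

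The S and G2M shares of cluster 6 depended on depth. Cells were put in S or G2M where the higher of the authors' 2 phase scores was above 0. By this rule 26.3% (23.9 to 28.9) of PAC1 members were in S and 42.1% (39.3 to 44.9) in G2M, against 31.2% (28.9 to 33.5) in S and 43.4% (41.0 to 45.9) in G2M of UNT members. At 11072 to 25075 UMIs, 25.4% of PAC1 members and 33.6% of UNT members were in S. The G2M order turned there, with 50.7% of PAC1 members and 39.3% of UNT members, so the G2M shares set no order between the conditions. Within PAC1, the 5 other clusters with at least 100 cells had S shares of 17.1% to 30.0% and G2M shares of 27.5% to 42.7%. Within UNT cells, no other cluster of that size had a higher G2M share than cluster 6, their range being 14.7% to 41.6%. The interval of cluster 5, the next highest, overlapped that of cluster 6, at 41.6% (39.9 to 43.3). The other clusters were not compared within the shared UMI range, so this sets no order between clusters. The PAC3 members had a G2M share of 57.6% (49.1 to 65.8) and an S share of 17.4% (11.6 to 24.6), and ERI3 members had 43.4% in G2M. The fewer members of PAC2, ERI1 and ERI2 had G2M shares of 55.6% (35.3 to 74.5), 55.6% (30.8 to 78.5) and 58.3% (27.7 to 84.8). These shares were not matched for depth, and the median was 14069 UMIs in PAC3 members against 12071 in PAC1 members. Nuclei carry no phase scores in the table.

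Many cluster 6 members had no detected lineage barcode. This was so for 352 of 1215 PAC1 members, or 29.0% (26.4 to 31.6), against 809 of 1591 UNT members, or 50.8% (48.4 to 53.3). In the same libraries the shares were 16.0% of PAC1 cells and 25.8% of UNT cells in cluster 1, and 13.8% of PAC1 cells and 39.7% of UNT cells in cluster 5. Other clusters were as high as cluster 6, with 30.0% of PAC1 cells in cluster 2, 26.3% of PAC1 cells in cluster 7 and 54.7% of UNT cells in cluster 9. Of UNT nuclei, 58.5% (54.0 to 63.0) in cluster 6, 41.4% in cluster 1 and 52.9% in cluster 9 had none. Against clusters 1 and 5, the gap was present in UNT cells at each of the 4 depth ranges above 10000 UMIs, but not below 10000 UMIs, where 67.3% of cluster 6, 75.2% of cluster 1 and 72.2% of cluster 5 had none. Among UNT cells with 15000 to 20000 UMIs, 58.9% of cluster 6, 29.9% of cluster 1 and 37.6% of cluster 5 had no barcode. Among PAC1 cells with 10000 to 15000 UMIs, 32.2% of cluster 6, 15.6% of cluster 1 and 13.7% of cluster 9 had none.

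The share of members without a barcode varied along pseudotime, and among intervals with at least 20 members it was highest at 8.5 to 12 in both libraries. At 8.5 to 12, 128 of 184 PAC1 members had no barcode, or 69.6% (62.4 to 76.1), against 133 of 688, or 19.3% (16.4 to 22.5), of PAC1 members at 16.5 to 19. In UNT cells the share at 8.5 to 12 was 57.9% (55.2 to 60.7; 748 of 1291), against 15% (10.4 to 20.7; 30 of 200) at 6 to 8.5 and 25.4% (15.5 to 37.5; 17 of 67) at 16.5 to 19. UNT nuclei had 62.0% (56.8 to 67.1) at 8.5 to 12. Of the 352 PAC1 members without a barcode, 128 lay at 8.5 to 12, 133 at 16.5 to 19 and 67 at 14.5 to 16.5. Cells of other clusters at 8.5 to 12 had lower shares, 27.5% (19.1 to 37.2) of PAC1 cells and 22.0% (20.4 to 23.6) of UNT cells, and for nuclei 42.2%. Other clusters had high shares elsewhere along pseudotime. At 14.5 to 16.5, 62.2% (56.0 to 68.1) of UNT cells outside cluster 6 had no barcode, and at 19 to 32, 60.3% (52.9 to 67.4), so intervals poor in barcodes were not particular to cluster 6.

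Depth did not differ much along this axis. PAC1 members at 8.5 to 12 had a median of 11643 UMIs, and those at 16.5 to 19 had 12034. With 10000 to 15000 UMIs, 73.5% (62.7 to 82.6) of PAC1 members at 8.5 to 12 had no barcode, against 19.8% (14.6 to 25.9) at 16.5 to 19. With 15000 to 20000 UMIs, 68.6% (63.7 to 73.1) of UNT members at 8.5 to 12 had none, against 15.5% (7.35 to 27.4) at 6 to 8.5. Above 30000 UMIs the UNT share at 8.5 to 12 was still 27.5% (21.3 to 34.3), against 2.78% at 6 to 8.5. Whether these members never carried a barcode or no longer expressed one was not tested.

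**Figure D4:**
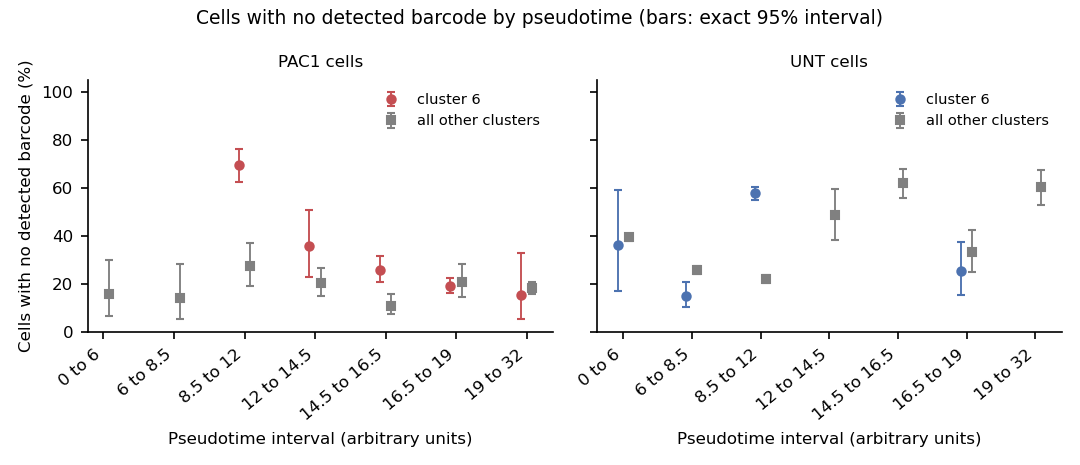
Share of cells with no detected barcode (y axis, percent) by pseudotime interval (x axis) in PAC1 cells and UNT cells, for cluster 6 and for all other clusters together, with exact 95% intervals, for intervals with at least 20 cells. Cluster 6 peaks at 8.5 to 12, with 69.6% in PAC1 and 57.9% in UNT cells, while the other clusters at that interval have 27.5% in PAC1 and 22.0% in UNT cells, and in UNT cells reach 62.2% at 14.5 to 16.5.

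Among members with barcodes, PAC1 and UNT cells differed in how many each cell showed. In PAC1, 41.1% of members had exactly 1 barcode and 30.0% had several, whereas in UNT cells 2.95% had exactly 1 and 46.2% had several. The runs differed this way outside cluster 6 too, with several barcodes in 29.6% of other PAC1 cells and 61.8% of other UNT cells. The authors' call gave 1 barcode to 651 PAC1 members (53.6%) and 537 UNT members (33.8%), and called doublets or multiplets among 7.90% of PAC1 members and 10.4% of UNT members.

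Cluster 6 held fewer lineages than the other clusters in UNT cells at equal cell numbers, and about as many in PAC1. The called members carried 109 different barcodes in PAC1 and 117 in UNT cells. In draws of 500 called cells, the expected number was 99.7 in cluster 6 and 93.4 in the other clusters of PAC1, and 112 in cluster 6 and 175 in the other clusters of UNT cells. The 10 leading barcodes held 46.7% of called PAC1 members and 62.0% of called UNT members. Pairs of cells with the same barcode showed how far lineages kept to the cluster. Where 1 PAC1 cell of such a pair was in cluster 6, the other was there in 37.8% of pairs, close to the 36.3% of called PAC1 cells that were in the cluster. In UNT cells the figure was 58.6%, against 10.6% of called cells, and in UNT nuclei 14.9%, against 3.26%. Lineages kept to several other clusters too. In UNT cells the figures were 91.0% against 58.7% in cluster 1 and 82.6% against 26.3% in cluster 5. UNT clusters 0 and 11 had no such excess, with 2.26% against 2.40% and 0.757% against 1.14%. In PAC1 they were 78.4% against 24.4% in cluster 9, 48.4% against 8.76% in cluster 2 and 42.7% against 9.93% in cluster 8. PAC1 clusters 1 and 7 had 15.9% against 8.82% and 9.60% against 5.47%. The PAC1 value of cluster 6 rests on the largest lineages. Over barcodes with 2 to 20 cells, the same-barcode share was 61.6% in PAC1, where 42.9% of such cells were in cluster 6, and 44.1% in UNT cells, where 8.33% were.

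PAC1 and UNT members shared 43 barcodes, which is 39.4% of the PAC1 set and 36.8% of the UNT set. These covered 54.1% of called PAC1 members and 72.1% of called UNT members. Of called PAC1 members, 82 of 651 (12.6%) had a barcode that was called in no UNT cell.

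Barcodes were then sorted by the cluster that held over 50% of their called UNT cells, for barcodes with at least 5 of these, a rule made after the data were seen. Cluster 6 led 11 barcodes, cluster 1 led 101 and cluster 5 led 44. In PAC1, 134 of 150 cells of the cluster 6-led barcodes lay in cluster 6, or 89.3% (83.3 to 93.8). Of cells with cluster 1-led barcodes 252 of 772 did, or 32.6% (29.3 to 36.1), and with cluster 5-led barcodes 60 of 117, or 51.3% (41.9 to 60.6). Over all 83 barcodes with at least 5 called PAC1 cells, 37 had at least 50% of their cells in cluster 6, a background of 44.6%. All 9 such cluster 6-led barcodes did, with a median of 91.7% and a range of 50.0% to 100%, as did 7 of 23 cluster 1-led and 6 of 9 cluster 5-led barcodes. The sorting used UNT cells alone, so PAC1 cells did not enter it.

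Although cluster 6-led lineages kept to cluster 6, they did not make up the larger share of it in PAC1. They were 8.37% (7.13 to 9.75) of all called PAC1 cells and 9.10% (8.33 to 9.93) of called UNT cells. In PAC1 they gave 20.6% of the called members, whereas cluster 1-led barcodes gave 38.7% and cluster 5-led barcodes 9.22%. Over all called PAC1 cells, cluster 1-led barcodes were 43.1% and cluster 5-led ones 6.53%, so the cluster 1-led share was lower within cluster 6. In UNT cells the cluster 6-led barcodes gave 63.5% of the called members, which the sorting rule favours. Pseudotime in cluster 6 of PAC1 also differed between these families, with a median of 15.8 (10th to 90th percentile 11.1 to 18.0) for cluster 6-led barcodes and 17.7 (14.6 to 18.7) for cluster 1-led ones. Of called PAC1 members at 14.5 to 16.5, 41.1% (32.5 to 50.1) had cluster 6-led barcodes and 24.8% cluster 1-led ones. At 16.5 to 19, 11.8% (8.94 to 15.3) had cluster 6-led and 43.9% cluster 1-led barcodes. Over all called PAC1 cells these shares were 8.37% and 43.1%. Among the 43 called at 8.5 to 12, 23 had cluster 6-led and 10 cluster 1-led barcodes.

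The small group of UNT members at late pseudotime had a family mix close to that of all called UNT cells. Of the 27 called UNT members at 16.5 to 19, 2 (7.41%) had cluster 6-led barcodes, 14 (51.9%) cluster 1-led and 7 (25.9%) cluster 5-led ones. Over all called UNT cells these shares were 9.10%, 52.1% and 25.3%. At 8.5 to 12, 267 of 391 called UNT members (68.3%) had cluster 6-led barcodes. Called doublets or multiplets were 31.3% (20.6 to 43.8) of the UNT members at 16.5 to 19 and 7.44% (6.06 to 9.01) of those at 8.5 to 12, and their part in the late group was not tested. In PAC1 the shares ran the same way, with 10.5% at 16.5 to 19 and 1.09% at 8.5 to 12. Doublets and multiplets were outcomes of the barcode call, and members with no detected barcode were more frequent at 8.5 to 12. Such members were 57.9% of UNT members at 8.5 to 12 against 25.4% at 16.5 to 19, and 69.6% against 19.3% in PAC1. The part of barcode detection in the doublet shares was not tested.

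After 1 round of eribulin the same lineages lay in another cluster. Of 46 ERI1 cells with cluster 6-led barcodes, 2 lay in cluster 6 and 43 (93.5%) in cluster 7. Cluster 7 held nearly the same shares of the other lineages in ERI1, 90.7% of cells with cluster 1-led and 94.3% of cells with cluster 5-led barcodes. Limited to the 7 barcodes seen in both drugs, 124 of 133 PAC1 cells (93.2%, 87.5 to 96.9) and 2 of 45 ERI1 cells (4.44%, 0.543 to 15.1) were in cluster 6. PAC1 and ERI1 were made in the same run but in separate libraries. The cluster 6-led barcodes were 3.39% (2.49 to 4.50) of called ERI1 cells. They were carried by 0 of 6725 called ERI4 cells (exact 95% upper limit 0.0548%) and 7 of 1495 called ERI4 nuclei (0.468%, 0.188 to 0.962). These limits count cells and not lineages. Called ERI4 cells held only 16 barcodes, with 4 of 101 cluster 1-led and 3 of 44 cluster 5-led ones among them. In ERI4 nuclei 4 of 11 cluster 6-led, 14 of 101 cluster 1-led and 13 of 44 cluster 5-led barcodes were seen.

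In later paclitaxel rounds these lineages were a smaller share of called cells. They were 2.99% (1.75 to 4.74) of called PAC2 cells and 1.53% (1.07 to 2.12) of called PAC3 cells, against 8.37% in PAC1 of the same library. This was not particular to them, as cluster 5-led barcodes were 6.53% in PAC1, 2.64% in PAC2 and 0.175% in PAC3. Cluster 1-led barcodes were 43.1%, 38.0% and 58.0%, and bc14-76-bc30-49517 was 48.9% of called PAC3 cells. Of the 11 cluster 6-led barcodes, 9, 7 and 5 were seen in these rounds, against 43, 22 and 19 of 101 cluster 1-led ones. Of 17 PAC2 cells with cluster 6-led barcodes, 3 lay in cluster 6 and 9 in cluster 7. Of 35 such PAC3 cells, 19 lay in cluster 6, or 54.3% (36.6 to 71.2), against 78 of 1326 PAC3 cells with cluster 1-led barcodes, or 5.88% (4.68 to 7.29). bc14-92-bc30-83570 gave 15 of those 19, and without it the count was 4 of 11. In UNT nuclei, 74 of 364 nuclei with cluster 6-led barcodes were in cluster 6, or 20.3% (16.3 to 24.8), against 36 of 2029, or 1.77%, with cluster 1-led barcodes.

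Single barcodes showed these patterns directly. bc14-21-bc30-67560 had 37 of 38 PAC1 cells and 72 of 73 UNT cells in cluster 6, and 15 of 50 UNT nuclei, while none of its 8 ERI1 cells was there. bc14-92-bc30-83570 had 34 of 36 PAC1 cells, 65 of 80 UNT cells and 17 of 69 UNT nuclei in the cluster, and none of 13 ERI1 cells. In both lineages nearly all PAC1 and most UNT cells lay in cluster 6, and most nuclei lay outside it, with 25 of 50 nuclei of the first and 34 of 69 of the second in cluster 0.

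Of the 4 pairs of named barcodes that share a first part, those of bc14-51 and bc14-69 had similar cluster 6 shares. Each member of both pairs had met the rule of at least 10 cluster 6 cells in both PAC1 and UNT cells, which favours such likeness. bc14-51-bc30-38039 had 11 of 11 PAC1 cells and 33 of 43 UNT cells in cluster 6, and bc14-51-bc30-21431 had 10 of 13 PAC1 cells and 31 of 47 UNT cells there. Their UNT members had median pseudotimes of 7.25 for the first and 7.59 for the second, early among the 11 barcodes with at least 10 UNT members, most of which lay between 9.12 and 10.0. bc14-69-bc30-34430 had 14 of 15 PAC1 cells and 19 of 27 UNT cells in cluster 6, and bc14-69-bc30-83753 had 11 of 12 PAC1 cells and 14 of 18 UNT cells there. The UNT medians of the bc14-69 pair were 9.57 and 9.68. In PAC1 the bc14-69 pair differed, with medians of 17.4 over 14 cells and 13.9 over 11 cells. The bc14-13 and bc14-55 pairs were less alike in the clusters of their UNT cells. bc14-13-bc30-62836 had 20 of 28 UNT cells in cluster 6 and bc14-13-bc30-74188 none of 4, with overlapping intervals (51.3 to 86.8 and 0 to 60.2). bc14-55-bc30-99383 had 16 of 18 in cluster 5 and bc14-55-bc30-23349 had 10 of 14 in cluster 1, and neither had a UNT cell in cluster 6. In PAC1 the bc14-13 pair was alike, with 7 of 8 cells of the first and 32 of 37 of the second in cluster 6. For the bc14-55 pair these counts were 14 of 25 and 5 of 6.

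Other lineages were in cluster 6 in PAC1 but not in UNT cells. bc14-13-bc30-74188 had 32 of 37 PAC1 cells there and none of its 4 UNT cells, 3 of which were in cluster 1. bc14-38-bc30-7217 had 27 of 44 PAC1 cells in cluster 6 and none of its 9 UNT cells, all of which were in cluster 1. bc14-55-bc30-99383 had 14 of 25 PAC1 cells in the cluster and none of its 18 UNT cells, 16 of which were in cluster 5. All 3 had few UNT cells. These zeros have wide upper exact 95% limits, 60.2% for 0 of 4, 33.6% for 0 of 9 and 18.5% for 0 of 18. Over all called UNT cells, 10.6% were in cluster 6. Of called UNT nuclei, bc14-13-bc30-74188 had 1 of 1 in cluster 6, bc14-38-bc30-7217 had 0 of 10 and bc14-55-bc30-99383 had 1 of 36.

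The barcode with the most cluster 6 cells in PAC1 mostly lay elsewhere. bc14-6-bc30-93034 had 74 of 259 PAC1 cells in cluster 6 (28.6%) and 1 of 15 UNT cells. bc14-76-bc30-49517 had 37 of 164 PAC1 cells there and 1 of 6 UNT cells, and in PAC3, where it was called in 1118 cells, 47 of these (4.20%) were in cluster 6. That barcode gave 43.5% of the called PAC3 members and 30.8% of the called ERI3 members. In ERI4 cells, bc14-55-bc30-23349 gave 23 of the 36 called members, out of 4597 called cells of that barcode.

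**Figure D5:**
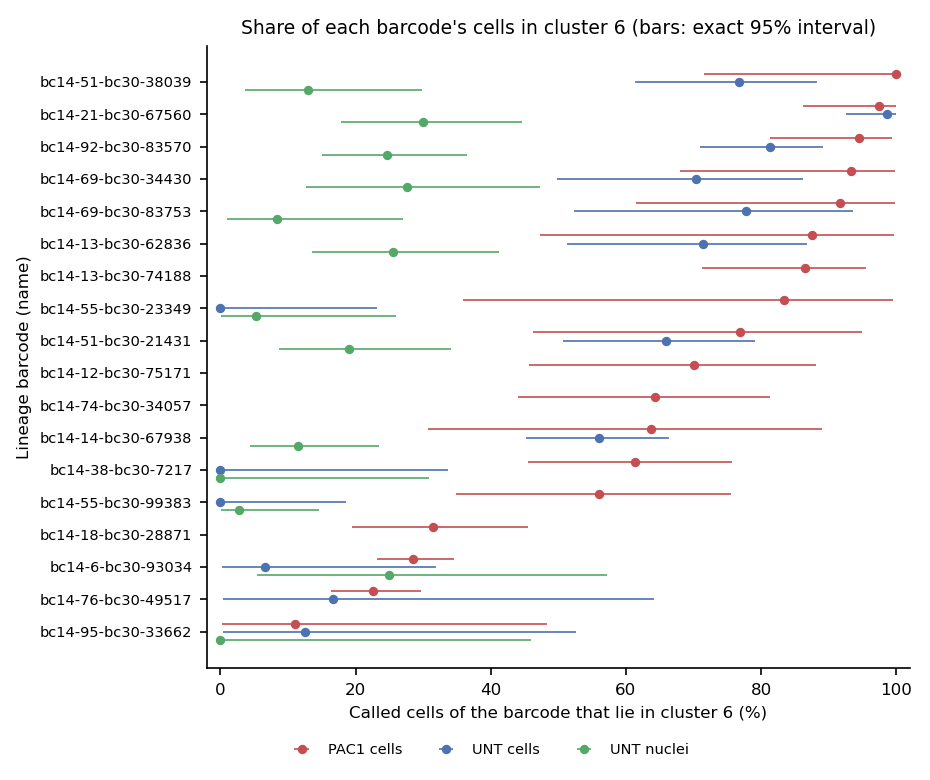
Share of each barcode's called cells that lie in cluster 6 (x axis, percent) for the named barcodes with at least 5 called PAC1 cells (y axis), in PAC1 cells, UNT cells and UNT nuclei where at least 5 were called, with exact 95% intervals. Barcodes such as bc14-21-bc30-67560 stand high in both PAC1 (97.4%) and UNT cells (98.6%), while bc14-38-bc30-7217 stands at 61.4% in PAC1 and 0 in UNT cells.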

How the data were processed

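Mouse PB3 libraries were made in 3 runs, 6 libraries holding 10 conditions. Per the submitters' processing notes and the design text, reads were counted against mm10 with Cell Ranger 3.1.0, 4.0.0 and ARC 1.0.0, and cells were clustered and embedded with Seurat 3.1.4. The authors' stated filter removed cells under 200 genes or over 50% mitochondrial or ribosomal UMIs. No cluster 6 member lay outside its gene and mitochondrial limits, and the ribosomal limit was not checked. The deposited counts are raw UMIs, genes and barcode features per cell, the deposited percent values are mitochondrial shares of UMIs, and the deposited score columns hold pseudotime and S and G2M scores on arbitrary scales, with the UMAP coordinates.

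Conditions came from the deposited condition names after each library was matched to its labels. Shares with exact 95% intervals, medians, expected barcode numbers in draws of 500 cells and the 30 nearest UMAP neighbours were computed with Python 3.11.15, pandas 2.3.3, numpy 2.4.6 and scipy 1.17.1, and checked on simulated data. Total UMIs per cell ran from 542 to 75111 in cluster 6. The latest barcode call was used, with 1 spelling for barcode names, and 1 was subtracted from the barcode features of nuclei, which always had at least 1. Doublets were handled only through the authors' calls. Libraries shared 245 cell barcodes, 36 of them with a cluster 6 cell, and without these cells the cluster 6 share was 41.4% in PAC1 and 14.4% in UNT cells. Named barcodes were the 10 with most cluster 6 cells in PAC1, the 10 in UNT cells, the 5 in other conditions, and those with at least 10 in both PAC1 and UNT cells, 20 in all, and all 20 matched a deposited sequence. The members, rules and lists were chosen with earlier results of these data known. No test was made, since cells are not replicates.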

Additional observations from a re-analysis of the deposited data

Results flagged for a closer look

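For 3 of 7 quantities compared between arms of the study, the same contrast ran in opposite directions in cluster 6. With 1 library each, none of these differences was tested. From round 1 to round 3 the cluster 6 share changed by 3.68 percentage points with eribulin and by -36.3 with paclitaxel. The eribulin conditions were captured in one library and the paclitaxel conditions in another of the same run, so each change lies within a library. The median UMI count of members differed between ERI4 and UNT by 3606 in cells and by -451 in nuclei. The median gene count of members differed between ERI4 and UNT by 267.5 in cells and by -163 in nuclei. The ERI4 medians rest on 60 cells and 49 nuclei. Both contrasts ran the same way over all clusters, so they were not particular to cluster 6. Over all clusters the median UMI count was 20877 in ERI4 and 18420 in UNT cells, and 2089 in ERI4 and 3427.5 in UNT nuclei. The median gene count was 4331 in ERI4 and 3982 in UNT cells, and 1186 in ERI4 and 1746.5 in UNT nuclei.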

How the results depend on the processing

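Of 72 alternative settings over 20 results, 48 left the value within its 95% counting interval and 24 moved it. Within the UMI range shared by PAC1 and UNT cells, the cluster 6 share was 46.9% of PAC1 and 16.2% of UNT cells, the G2M share 50.7% of PAC1 and 39.3% of UNT members, the S share of UNT members 33.6% and the median pseudotime of PAC1 members 17.2. Without called doublets and multiplets the cluster 6 share of UNT cells was 15.4%. In G1 members alone the median pseudotime was 17.6 in PAC1 and 9.52 in UNT cells. With phase scores above 0.1, S shares were 12.3% of PAC1 and 14.4% of UNT members and G2M shares 31.9% of PAC1 and 28.3% of UNT members, which also turns the G2M order. With the first revision of the barcode call, 45.0% of PAC1 and 13.5% of UNT members were called, the 10 leading barcodes held 52.8% of called PAC1 members, the same-barcode share in UNT cells was 51.7% and the cluster 6 share of PAC1 cells with cluster 1-led barcodes was 36.1%. With exactly 1 detected barcode, 41.1% of PAC1 and 2.95% of UNT members qualified, the 10 leading barcodes held 54.1% of those in PAC1, and the same-barcode share in UNT cells was 46.4%. Over barcodes with 2 to 20 cells the same-barcode share was 61.6% in PAC1 and 44.1% in UNT cells. The alternatives for barcodes sorted by leading cluster were chosen after seeing the data, and under each of them cluster 6-led barcodes had 86.6% to 89.3% of their PAC1 cells in cluster 6. The causes were not tested. No paired analysis was possible because each condition has 1 library and no test was made.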
